A study of Mus musculus with 16 samples.

Results

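Transcripts of the mitochondrial ribosome were followed in gonadal white adipose tissue of fed and fasted mice. The genes were all those with a symbol of the form Mrpl or Mrps and a number, read from probe sets annotated with a single symbol, and 71 of the 22180 genes measured qualified, 43 with large subunit symbols and 28 with small subunit symbols. The symbols Mrpl30, Mrpl33, Mrpl41, Mrpl43, Mrpl44, Mrpl53 and Mrps6 were found only on probe sets that name several genes and are not among the 71. Of the 71, Mrps18a and Mrps30 carry small subunit symbols but sit in the large subunit in solved structures, and Mrps36 is now known as a component of the 2-oxoglutarate dehydrogenase complex rather than of the ribosome.

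The samples were gonadal fat from male C57BL/6 mice 3 to 4 months of age, taken in the morning, with 8 samples from mice that ate freely and 8 from mice without food for 16 hours. No transgene or drug is named in the labels, and fed and fasted mice shared strain, sex and age. RNA was hybridised to Affymetrix whole-transcript arrays, and every level below is a log2 value after robust multi-array averaging (RMA), so a difference of 1 means a doubling, read against the rest of the array. Nothing in the labels says that samples came from separate mice, so the p-values rest on the spread among samples, which may be technical. In a piece of tissue fewer cells of a type and less RNA per cell cannot be told apart.

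Mitochondria build a small set of proteins of their own, all of them core subunits of the respiratory chain and the ATP synthase, on ribosomes that descend from those of bacteria. The RNA of these ribosomes comes from mitochondrial DNA, but every protein in them is encoded in the nucleus, made in the cytosol and imported, so each ribosome joins parts from both genomes. The large subunit joins amino acids and guides the new chain into the inner membrane, and the small subunit reads the messenger RNA. In white fat, mitochondria supply carbon for triglyceride synthesis and burn fuel for the adipocyte.

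The promoters of the 4 genes with the largest falls, Mrpl49, Mrpl34, Mrps22 and Mrpl42, and of Mrpl45, the only one called higher, are shown so that the letters next to their start sites can be set beside the values. Each line gives the 250 bases before the start site, read in the direction of the gene, from RefSeq on build GRCm38.p6. Capitals mark matches on either strand to 7 short motifs: CCGGAAG (core of ETS factor sites, which GABP uses), AAGATGGC (YY1 core), GCATGCGC (NRF1 core), GGGCGGGG (SP core), CACGTG (E-box), TGACGTCA (cyclic AMP response element) and ACANNTCCC. The last was added after these sequences were seen, and its letters form part of the longer site known for the zinc finger protein ZNF143.
Mrpl49, chr19:6057756-6058005, minus strand: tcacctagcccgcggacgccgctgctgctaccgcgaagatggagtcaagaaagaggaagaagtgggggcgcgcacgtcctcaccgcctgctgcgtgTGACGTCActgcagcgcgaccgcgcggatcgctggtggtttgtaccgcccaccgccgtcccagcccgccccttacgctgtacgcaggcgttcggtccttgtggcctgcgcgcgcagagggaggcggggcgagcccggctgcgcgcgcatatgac
Mrpl34, chr8:71464676-71464925, plus strand: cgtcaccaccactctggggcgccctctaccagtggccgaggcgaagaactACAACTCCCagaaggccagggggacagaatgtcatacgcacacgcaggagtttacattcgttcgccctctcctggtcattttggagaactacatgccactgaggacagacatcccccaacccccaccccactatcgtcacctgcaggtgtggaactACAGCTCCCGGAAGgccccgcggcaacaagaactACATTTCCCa
Mrps22, chr9:98601680-98601929, minus strand: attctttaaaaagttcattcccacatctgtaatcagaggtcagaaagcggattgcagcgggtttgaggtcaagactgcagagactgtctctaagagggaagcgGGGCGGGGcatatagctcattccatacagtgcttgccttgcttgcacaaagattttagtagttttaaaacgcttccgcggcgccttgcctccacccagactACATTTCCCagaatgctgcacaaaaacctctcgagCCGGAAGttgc
Mrpl42, chr10:95501950-95502199, minus strand: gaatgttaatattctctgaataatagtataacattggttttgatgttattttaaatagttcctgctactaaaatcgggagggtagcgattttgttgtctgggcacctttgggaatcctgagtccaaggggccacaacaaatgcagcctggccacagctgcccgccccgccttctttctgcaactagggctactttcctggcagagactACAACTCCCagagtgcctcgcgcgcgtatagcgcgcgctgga
Mrpl45, chr11:97315466-97315715, plus strand: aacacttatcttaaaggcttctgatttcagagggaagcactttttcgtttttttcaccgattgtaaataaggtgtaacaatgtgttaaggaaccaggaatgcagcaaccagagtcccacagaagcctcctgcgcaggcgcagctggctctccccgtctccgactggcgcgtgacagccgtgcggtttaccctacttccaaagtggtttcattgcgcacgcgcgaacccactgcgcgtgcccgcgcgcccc

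In Mrpl34 the pattern ACANNTCCC occurred 3 times, and 1 of these matches overlapped the ETS core. Mrps22 had it once, 46 bases before the start, with an ETS core at 11 bases and an SP core at 147 bases before the start. Mrpl42 had it once, at 42 bases before the start. Mrpl49 had a cyclic AMP response element 154 bases before the start, and Mrpl49 and Mrpl42 each had a YY1 core after the start, at 16 and 27 bases, outside the printed stretch. Mrpl45 had none of the 7 in its window.

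Over the full window of 250 bases before and 50 bases after the start, 62 of the 71 genes had a promoter entry, and they were set against all 27025 genes of the promoter table. The ETS core was found in 23 of the 62 (37.1%) and in 9.93% of all genes. The YY1 core stood in 12 (19.4%) against 3.19%, and the NRF1 core in 7 (11.3%) against 3.05%. The SP core was in 24.2% against 19.6%, the E-box in 8.07% against 8.09%, the cyclic AMP response element in 3.23% against 2.03%, and ACANNTCCC in 5 genes (8.07%) against 7.21%. These shares describe letters in a window and show neither binding nor a cause. Of the 5 genes with ACANNTCCC, Mrpl34, Mrps22 and Mrpl42 were lower in fasted fat and Mrpl24 and Mrpl50 were not called. That is 3 of the 23 lower genes with an entry and 2 of the 39 others. The pattern was chosen after the promoters of those 3 lower genes were seen, so this split cannot show a link with the falls. The 23 lower genes with an entry had the YY1 core in 7 cases (30.4%), namely Mrpl49, Mrpl42, Mrpl35, Mrpl36, Mrps7, Mrps11 and Mrps27, and the 39 other genes had it in 5 (12.8%). The ETS core was in 8 of the 23 (34.8%) and 15 of the 39 (38.5%), and the NRF1 core in 1 of the 23 and 6 of the 39. The numbers are small, and none of these differences was tested.

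Of the whole series, 16 arrays gave array medians of 3.60 to 3.69 in the fed group and 3.62 to 3.68 in the fasted group. Adipocyte markers were high in every array, as the tissue label says: the mean log2 level of 8 measured markers, including Adipoq, Fabp4 and Lipe, was 11.3 to 11.6 in fed and 11.0 to 11.3 in fasted arrays. Fed replicate 2 and fasted replicate 7 stood apart, with a mean of 5.40 and 4.95 for 9 markers of ciliated epithelium, against at most 3.53 in the other arrays. Fed replicate 3 was doubted in earlier results of these data, but by the marker lists used here it did not stand apart: its mean of 9 liver transcripts was 8.80 beside 8.69 in fed replicate 2, 8.41 in fed replicate 4 and 8.15 in fasted replicate 4. Counts are given without these 3 doubted arrays and, as an alternative added after the data were seen, without fed replicate 2 and fasted replicate 7 alone.

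Fasting lowered 25 of the 71 genes (35.2%) and raised 1 (1.41%), by limma with a Benjamini-Hochberg adjusted p under 0.05 over all 22180 genes, which is the meaning of "called" throughout. Of all genes, 10.7% were called lower and 8.49% higher, and of the 11090 genes with the higher means, to which 66 of the 71 belong, 19.3% were called lower. In all, 58 of the 71 log2 fold changes were negative (81.7%), against 50.9% of all genes and 53.9% of those with the higher means. The median of the 71 was -0.17, against -0.0042 over all genes and -0.026 over those with the higher means. The falls were small: the median corresponds to levels 1.12-fold lower in fasted fat, and only Mrpl49, Mrpl34 and Mrps22 were lower by at least 1.50-fold. In 9 of the 71 genes every fasted array lay below every fed array. This was so for 766 of all 22180 genes (3.45%) and for 745 of the 11090 genes with the higher means. Without the 3 doubted arrays, 22 genes were lower, 20 of them among the 25, and 0 were higher by limma, and without fed replicate 2 and fasted replicate 7 alone 23 were lower, again 20 of them among the 25, and 0 higher. With all 16 arrays, an unadjusted limma p under 0.05 was reached by 33 lower genes and 1 higher gene, and an exact rank sum test with the same adjustment called 23 lower and 0 higher. By the rank sum test Mrpl20, Mrpl28, Mrpl45, Mrps7 and Mrps27 lost their calls (adjusted p = 0.209, 0.0541, 0.0706, 0.0541 and 0.0912), and Mrpl3 and Mrpl21 were called lower (0.0399 each).

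**Figure D1:**
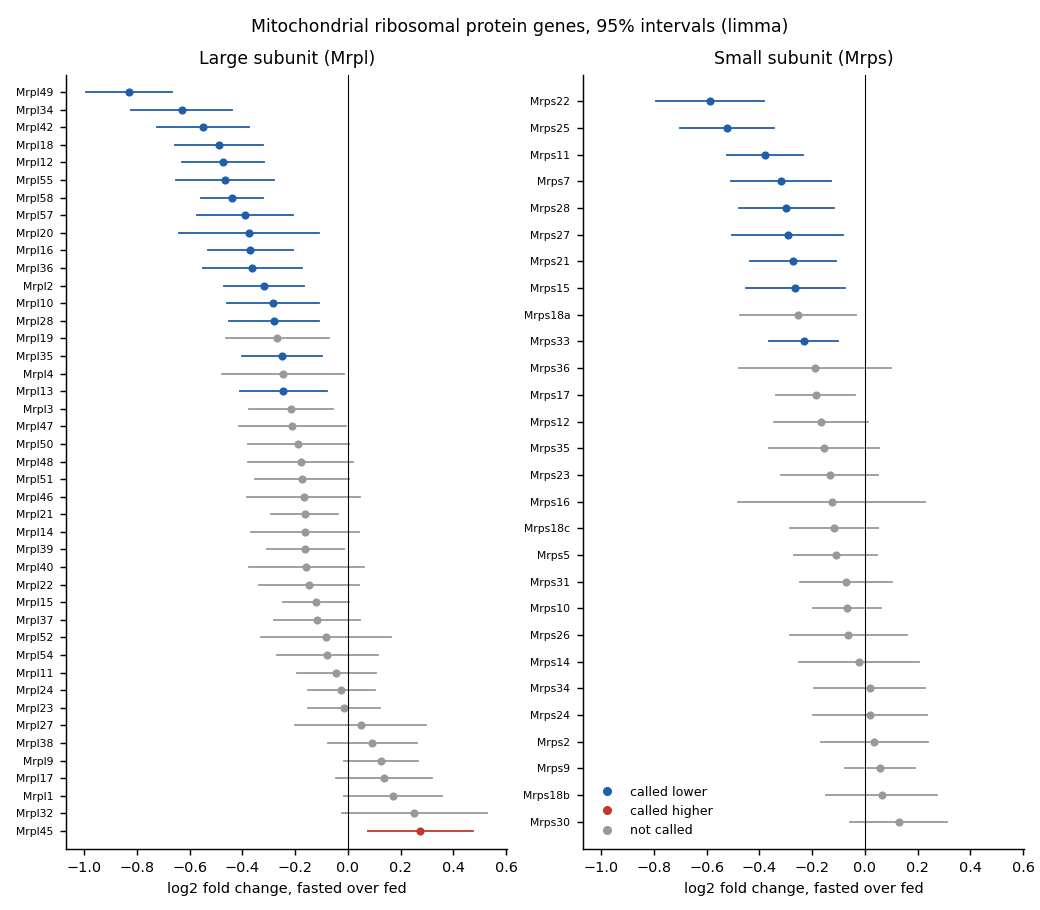
Log2 fold change (fasted over fed, horizontal axis) of each of the 71 mitoribosomal genes with its 95% interval, for 43 large subunit symbols (left) and 28 small subunit symbols (right), 8 arrays a group; blue marks genes called lower, red called higher and grey not called. Most points lie left of 0, from -0.83 for Mrpl49 to 0.28 for Mrpl45.

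Genes of both subunits were lower in fasted fat, and the difference between the subunits was not tested. Of 43 large subunit genes 16 were lower (37.2%), 1 was higher and 26 were not called, with a median log2 fold change of -0.18. Of 28 small subunit genes 9 were lower (32.1%), 0 were higher and 19 were not called, with a median of -0.14. None of the 28 was higher at an unadjusted limma p under 0.05 or by the rank sum test after adjustment (0 in each). With Mrps18a and Mrps30 counted as large and Mrps36 left out, the counts of lower genes were 16 of 45 and 9 of 25. The mean over the large subunit genes of each array ran from 6.14 through a median of 6.36 to 6.45 in fed and from 6.06 through 6.13 to 6.24 in fasted arrays. The mean over the small subunit genes ran from 6.10 through 6.22 to 6.30 and from 5.91 through 6.03 to 6.22. The groups overlapped in both. Fed replicate 2 had the lowest fed mean for each subunit and was the only fed array within the fasted range for the large one, and fasted replicate 8 had the highest fasted mean for each. The large mean exceeded the small mean by 0.044 to 0.18 in fed and by 0.015 to 0.20 in fasted arrays, so the fed range of this difference lay within the fasted one.

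**Figure D2:**
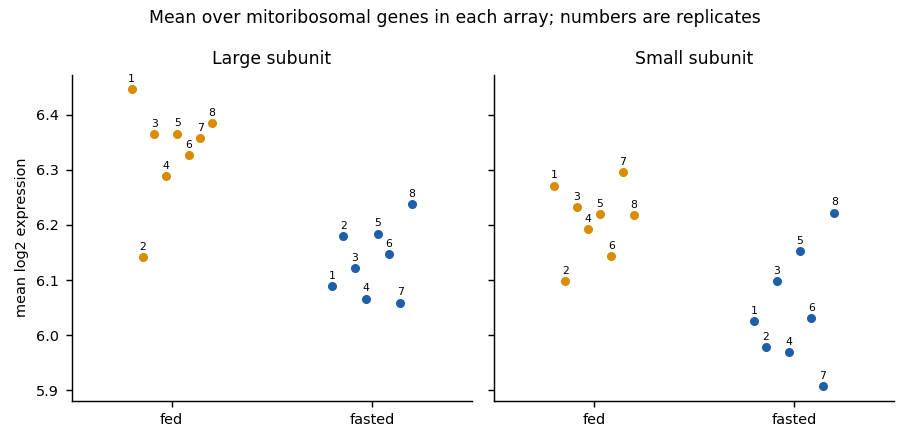
Mean log2 expression (vertical axis) of the large subunit genes (left) and small subunit genes (right) in each array, with fed arrays in orange, fasted arrays in blue, and the replicate number above each point. Fed replicate 2, at 6.14 and 6.10, lies lowest among the fed arrays, and fasted replicate 8, at 6.24 and 6.22, highest among the fasted arrays.

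Genes classed here as having a counterpart in bacterial ribosomes numbered 43, of which 17 were lower and 0 higher by limma, with a median of -0.19 (0 higher at an unadjusted limma p under 0.05, 0 by the rank sum test). Genes classed as specific to mitochondria numbered 27, of which 8 were lower and 1 was higher, with a median of -0.16. This class takes in Mrps18a and Mrps18b, although both are relatives of a bacterial small subunit protein, and neither was called. The genes with the largest falls came from both kinds.

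The largest fall was that of Mrpl49, a large subunit protein with no bacterial counterpart. Its fed arrays ran from 7.14 through a median of 7.28 to 7.56 and its fasted arrays from 6.25 through 6.47 to 6.75. The groups did not overlap, and the fasted level was 56.3% of the fed level (log2 fold change -0.83, SE 0.078, limma adjusted p = 3.54e-07). Mrpl34, the counterpart of a short bacterial protein of the large subunit, ran from 7.28 through 7.44 to 7.61 in fed and from 6.43 through 6.85 to 7.12 in fasted arrays. Again no fasted array reached the lowest fed one, and Mrpl34 fell by 0.63 (SE 0.091, adjusted p = 5.10e-05). Mrpl42, another protein specific to mitochondria, lay between 6.68 and 7.23 (median 6.99) in fed and between 6.26 and 6.60 (median 6.52) in fasted arrays. The lowest fed value of Mrpl42 was that of fed replicate 2, and the gene fell by 0.55 (SE 0.083, adjusted p = 8.44e-05).

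**Figure D3:**
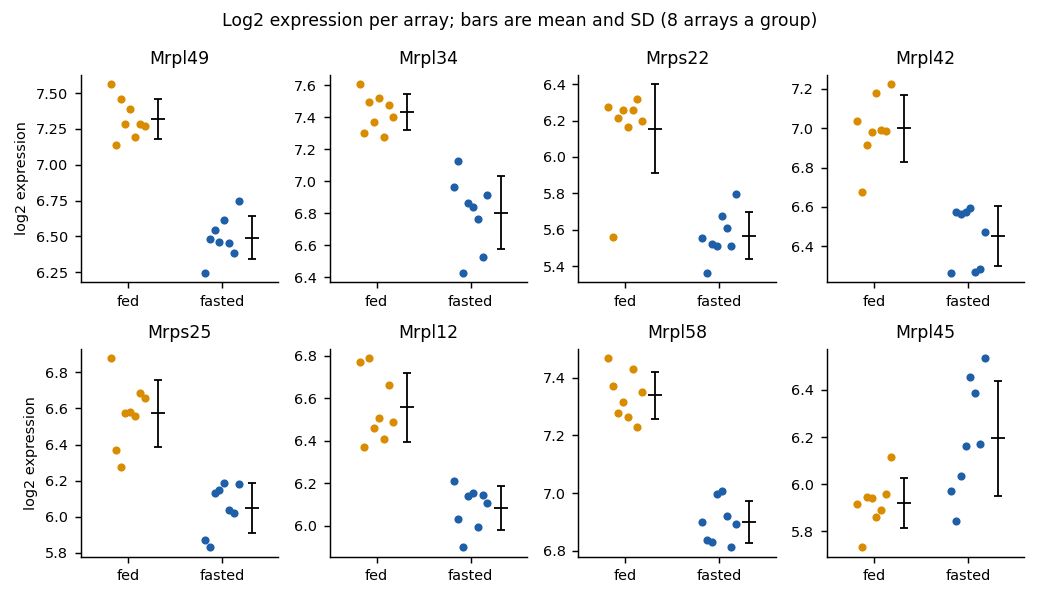
Log2 expression (vertical axis, scaled to each gene) in each of 8 fed (orange) and 8 fasted (blue) arrays for 8 of the called genes, with the mean and SD as bars. The groups do not overlap in Mrpl49, Mrpl34, Mrpl42, Mrps25, Mrpl12 and Mrpl58, overlap through fed replicate 2 at 5.56 in Mrps22, and overlap broadly in Mrpl45, where fasted arrays are higher.

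The stalk of the large subunit recruits translation factors. Of 3 genes placed there here 2 were lower, beside 10.7% of all genes and 19.3% of those with the higher means. This and the following placings of proteins are background knowledge, made after the values were seen. They are not complete, so their counts describe only the genes picked. Mrpl12, the flexible stalk protein, which is also known to bind the mitochondrial RNA polymerase, ran from 6.37 through 6.50 to 6.79 in fed and from 5.90 through 6.12 to 6.21 in fasted arrays. The groups did not overlap (log2 fold change -0.47, SE 0.074, limma adjusted p = 1.21e-04), and a second, dimmer probe set of Mrpl12 gave -0.38 (adjusted p = 0.0122). Mrpl10, which anchors the stalk, ran from 7.50 through 7.89 to 8.14 in fed and from 7.35 through 7.62 to 7.78 in fasted arrays, with 1 fasted array below the lowest fed one. It fell by 0.28 (SE 0.083, adjusted p = 0.0201), while its second probe set gave -0.14 and was not called (adjusted p = 0.329). Mrpl11, at the stalk base, had a log2 fold change of -0.043 (adjusted p = 0.772).

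Several large subunit proteins line the centre where peptide bonds form. Mrpl16, whose bacterial counterpart helps to seat transfer RNA, ran from 6.39 through 6.58 to 6.68 in fed and from 5.82 through 6.23 to 6.36 in fasted arrays. It fell without overlap by 0.37 (SE 0.077, limma adjusted p = 0.00176). Mrpl2, which packs against that centre, ran from 6.44 through 6.66 to 6.84 and from 6.20 through 6.32 to 6.60, with 6 fasted arrays below all fed arrays, and fell by 0.32 (SE 0.073, adjusted p = 0.00354). Mrpl3, also near that centre, just missed the threshold (-0.21, SE 0.076, adjusted p = 0.0570). Leaving out fed replicate 2, fasted replicate 7 or fasted replicate 8 brought Mrpl3 past it, with adjusted p = 0.0131, 0.0475 and 0.0484. Mrpl27, the counterpart of a bacterial protein that reaches into the same centre, had the dimmest probe set of all 71 genes (2.68 to 3.47 in fed, 2.73 to 3.43 in fasted arrays) and showed no call.

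The crown of the large subunit, its central protuberance, holds Mrpl18, Mrpl38, Mrpl40, Mrpl46, Mrpl48 and Mrpl58. Mrpl18, whose bacterial counterpart holds a ribosomal RNA in that place, ran from 6.95 through 7.19 to 7.54 in fed and from 6.55 through 6.79 to 6.88 in fasted arrays. It fell without overlap by 0.49 (SE 0.080, limma adjusted p = 1.78e-04). Mrpl58, a peptidyl-tRNA hydrolase that frees stalled ribosomes, had the narrowest spread within groups, running from 7.23 through 7.33 to 7.47 in fed and from 6.81 through 6.90 to 7.01 in fasted arrays. It fell by 0.44 with an SE of only 0.056 (adjusted p = 1.45e-05), and no fasted array reached a fed one. Mrpl38, Mrpl40, Mrpl46 and Mrpl48 had no call, at log2 fold changes of 0.093, -0.16, -0.17 and -0.18. Mrpl48 passed the test only without fed replicate 2 (adjusted p = 0.0282).

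The new protein leaves through a tunnel, and 4 genes were placed along it here, again after the values were seen. Of these 1 was called, as higher, beside 8.49% of all genes. The 4 are not a complete list, so the count does not describe the tunnel as a whole. Mrpl45, which holds the ribosome to the inner membrane at the tunnel exit, ran from 5.73 through 5.93 to 6.12 in fed and from 5.85 through 6.17 to 6.53 in fasted arrays. The groups overlapped, with 0 fasted arrays below the lowest fed one, and the mean was 1.21-fold higher in fasted fat (log2 fold change 0.28, SE 0.094, limma adjusted p = 0.0479). Dropping 1 array ended this call in 12 of 16 cases, with adjusted p = 0.0605 to 0.0985, the exceptions being fed replicate 8 and fasted replicates 1, 2 and 3. It also ended without the 3 doubted arrays (adjusted p = 0.142) and after subtraction of array medians (adjusted p = 0.0814). Mrpl22, Mrpl23 and Mrpl24, counterparts of bacterial proteins at the tunnel, had log2 fold changes of -0.15, -0.014 and -0.024 and no call. Mrpl24 had the brightest probe set of the 71 genes, which does not measure abundance between genes, at 8.25 to 8.57 in fed and 8.20 to 8.45 in fasted arrays, and its 95% interval of -0.15 to 0.10 leaves out the size of the falls in Mrpl16 and Mrpl2.

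The remaining large subunit genes called lower were Mrpl55, Mrpl57, Mrpl20, Mrpl36, Mrpl28, Mrpl35 and Mrpl13. Mrpl55 ran from 6.90 through 7.28 to 7.48 in fed and from 6.53 through 6.80 to 6.97 in fasted arrays and fell by 0.47 (SE 0.088, limma adjusted p = 7.35e-04). Mrpl57, specific to mitochondria, ran from 5.66 through 5.87 to 6.18 and from 5.33 through 5.47 to 5.75 and fell by 0.39 (SE 0.087, adjusted p = 0.00299). In Mrpl55 only fed replicate 2 lay within the range of the fasted arrays. In Mrpl57 fed replicates 2 and 4 lay below fasted replicate 5, and fed replicate 2 also below fasted replicate 6. The other 6 fasted arrays of Mrpl57 lay below all fed arrays. Mrpl36, the counterpart of a very short bacterial ribosomal protein, fell by 0.36 (SE 0.090, adjusted p = 0.00701), and its dimmer probe set gave -0.26 (adjusted p = 0.149). Mrpl28 and Mrpl35 fell by 0.28 (SE 0.082) and 0.25 (SE 0.073), and the call of Mrpl28 was lost without the 3 doubted arrays (adjusted p = 0.0763) and, just, without fed replicate 2 and fasted replicate 7 (adjusted p = 0.0502). Mrpl20 and Mrpl13, both with bacterial counterparts, passed less firmly. Mrpl20 ran from 5.69 through 6.34 to 6.53 and from 5.43 through 5.88 to 6.13 (log2 fold change -0.38, SE 0.13, adjusted p = 0.0436), with fed replicates 2, 4 and 8 inside the range of the fasted arrays. Dropping 1 array ended the call of Mrpl20 in 11 of 16 cases, with adjusted p = 0.0569 to 0.0893, the exceptions being fed replicates 2, 4 and 8 and fasted replicates 6 and 8. The call of Mrpl13 (-0.24, SE 0.078, adjusted p = 0.0336) ended when fed replicate 1, 5, 6 or 8 or fasted replicate 1, 6 or 7 was dropped, with adjusted p = 0.0547 to 0.0694. Without the 3 doubted arrays the adjusted p was 0.0568 for Mrpl20 and 0.0529 for Mrpl13.

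In the small subunit the largest fall was that of Mrps22, a protein found only in mitochondrial ribosomes, whose human counterpart is mutated in inherited respiratory chain deficiency. Its fed arrays ran from 5.56 through 6.23 to 6.32 and its fasted arrays from 5.36 through 5.54 to 5.80. The lowest fed value was that of fed replicate 2, and the other 7 fed arrays, at 6.16 or more, all lay above the fasted arrays. Mrps22 fell by 0.59 (SE 0.097, limma adjusted p = 1.98e-04), and by 0.67 without fed replicate 2 (adjusted p = 9.31e-07). Mrps25, also specific to mitochondria, ran from 6.28 through 6.58 to 6.88 in fed and from 5.83 through 6.08 to 6.18 in fasted arrays and fell without overlap by 0.52 (SE 0.085, adjusted p = 1.61e-04).

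Among small subunit genes with bacterial counterparts, Mrps11, of the platform of the subunit, ran from 6.52 through 6.64 to 6.76 and from 6.10 through 6.23 to 6.47 and fell without overlap by 0.38 (SE 0.069, limma adjusted p = 4.74e-04). Mrps7, which organises the head of the subunit, ran from 7.15 through 7.43 to 7.66 and from 6.91 through 7.13 to 7.48 and fell by 0.32 (SE 0.090, adjusted p = 0.0164). In Mrps7 the groups overlapped, with 4 fasted arrays below all fed arrays. Mrps28 and Mrps21 fell by 0.30 (SE 0.086) and 0.27 (SE 0.078), with 6 and 4 fasted arrays below all fed arrays, and the call of Mrps28 was lost without the 3 doubted arrays (adjusted p = 0.0692). Without fed replicate 2 and fasted replicate 7 the adjusted p was 0.0662 for Mrps28 and 0.0562 for Mrps21. Mrps33, specific to mitochondria, fell by 0.23 (SE 0.063, adjusted p = 0.0126). Mrps15 and Mrps27 stood at the threshold, with log2 fold changes of -0.26 (SE 0.090, adjusted p = 0.0477) and -0.29 (SE 0.10, adjusted p = 0.0487). The call of Mrps15 ended in 13 of 16 cases when 1 array was dropped, with adjusted p = 0.0526 to 0.0981, the exceptions being fed replicate 2 and fasted replicates 2 and 8. Mrps27, an RNA-binding protein of the pentatricopeptide repeat family, also lost its call in 13 of 16 cases, with adjusted p = 0.0543 to 0.0955, the exceptions being fed replicates 6 and 8 and fasted replicate 8. Without the 3 doubted arrays Mrps27 stood at -0.18 (adjusted p = 0.235).

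The genes not called were Mrpl1, Mrpl3, Mrpl4, Mrpl9, Mrpl11, Mrpl14, Mrpl15, Mrpl17, Mrpl19, Mrpl21, Mrpl22, Mrpl23, Mrpl24, Mrpl27, Mrpl32, Mrpl37, Mrpl38, Mrpl39, Mrpl40, Mrpl46, Mrpl47, Mrpl48, Mrpl50, Mrpl51, Mrpl52 and Mrpl54 in the large subunit. In the small subunit they were Mrps2, Mrps5, Mrps9, Mrps10, Mrps12, Mrps14, Mrps16, Mrps17, Mrps18a, Mrps18b, Mrps18c, Mrps23, Mrps24, Mrps26, Mrps30, Mrps31, Mrps34, Mrps35 and Mrps36. Their log2 fold changes lay between -0.27 for Mrpl19 and 0.25 for Mrpl32. Nearest to the threshold were Mrpl19 (-0.27, SE 0.093, limma adjusted p = 0.0511), Mrpl3 and Mrpl21 (-0.16, SE 0.060, adjusted p = 0.0680). Without any 1 of fed replicates 2 and 5 and fasted replicate 6, Mrpl19 was called (adjusted p = 0.0118 to 0.0372), and without fed replicate 6 Mrpl21 was called (adjusted p = 0.0479). Mrpl32, the counterpart of a bacterial protein and a known substrate of a mitochondrial inner membrane protease, was higher on average but spread widely, from 5.07 through 5.50 to 5.93 in fed and from 5.27 through 5.88 to 6.06 in fasted arrays (0.25, SE 0.13, adjusted p = 0.221). Mrpl4 was at -0.25 (SE 0.11, adjusted p = 0.141). Mrps12, whose bacterial counterpart is the site of streptomycin resistance, was at -0.17 (SE 0.085, adjusted p = 0.209), and Mrpl17, with 1 of the 4 brightest probe sets beside Mrpl24, Mrpl52 and Mrps15, at 0.14 (adjusted p = 0.338). Leaving out fasted replicate 4 brought Mrpl17 past the threshold as higher (adjusted p = 0.0498), and leaving out fasted replicate 8 or fed replicate 8 brought Mrps17 past it as lower (adjusted p = 0.0433 and 0.0372).

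The 3 relatives of one bacterial small subunit protein showed no call. Mrps18a, which sits in the large subunit, was at -0.25 (SE 0.10, limma adjusted p = 0.110) and was called without fasted replicate 5 (adjusted p = 0.0223). Mrps18b was at 0.064 and Mrps18c at -0.12, and their second probe sets gave -0.066 and 0.13, the opposite sign in each case, with 0 of these 4 values called. Mrps30 and Mrps36 were at 0.13 (adjusted p = 0.383) and -0.19 (adjusted p = 0.422). The second probe sets of Mrpl47, Mrps5, Mrps16 and Mrps17 gave -0.36, -0.13, -0.23 and -0.26, each of the same sign as the first and not called. Mrps16 had the widest spread within groups, 4.54 to 5.61 in the fasted arrays alone, and Mrps36, Mrps18c, Mrps14, Mrpl27 and Mrpl48 were so dim that their mean lay under the log2 level of 4.32 used as a filter. None of these 5 was called (0 at an unadjusted limma p under 0.05, 0 by the rank sum test), against 25 lower and 1 higher of the 66 others, and for genes this dim a small fall may not be detectable.

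Within each group the genes varied together to a small degree. After subtraction of group means, the mean pairwise correlation over the 16 arrays, 8 in each group, was 0.19 among the 71 genes, 0.24 among complex I genes, 0.027 among the 11090 genes with the higher means and 0.0015 over all genes; these points share the same arrays and normalization. Mrps7, Mrpl2 and Mrpl49 followed the mean of the other genes most closely (r = 0.844, 0.794 and 0.791), and Mrpl40 and Mrpl24 had the lowest values (r = -0.285 and -0.263), Mrpl24 with -0.487 in the fed arrays and 0.00072 in the fasted ones. The pairs most alike were Mrpl37 with Mrps22 (r = 0.844) and Mrpl10 with Mrpl55 (r = 0.836), again over 16 arrays. Fed replicate 2, low in many of the genes above, takes part in these correlations. Its array median was the highest of all, at 3.69, and its adipocyte marker mean the lowest fed one, at 11.3, and their part in the result was not tested.

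Of the 71 genes, 23 had a neighbour on the opposite strand whose start lay within 1000 bases, at distances of 8 to 756 bases, so that both are read outward from a shared stretch. Of 8 lower genes with such a neighbour, the neighbour was lower in 1, higher in 1 and not called in 6, which is near the shares of all genes called lower (10.7%) and higher (8.49%). Fau, which encodes a ubiquitin-like protein fused to a cytosolic ribosomal protein, starts 192 bases from Mrpl49 and was at 0.13 (SE 0.081, limma adjusted p = 0.354) where Mrpl49 fell by 0.83. Tcp1, a subunit of the cytosolic chaperonin, starts 238 bases from Mrpl18 and was at -0.044 (adjusted p = 0.738). Gga3, a clathrin adaptor, starts 224 bases from Mrps7 and was higher by 0.33 (SE 0.080, adjusted p = 0.00553). The uncharacterised gene 2610507I01Rik, 55 bases from Mrpl55, fell by 0.50 (SE 0.099, adjusted p = 0.00120). Mrps11 and Mrpl46 are neighbours of each other, 42 bases apart, and only Mrps11 was called, with -0.38 against -0.17. The difference within these pairs was not tested. Of 15 genes not called lower, the neighbour was lower in 5, beside 10.7% of all genes and 19.3% of those with the higher means. These neighbours were Ndufb5 beside Mrpl47, Ncapd2 beside Mrpl51, Tmem63b beside Mrpl14, Cyb5rl beside Mrpl37 and Mrps11 beside Mrpl46. Mrps11 is itself 1 of the 71 genes, and its pair with Mrpl46 enters both counts. The numbers are small, and the difference between the counts was not tested. Mrps12 shares its start region with Sars2, the mitochondrial seryl-tRNA synthetase, and the pair stood at -0.17 and -0.17, neither of them called.

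**Figure D4:**
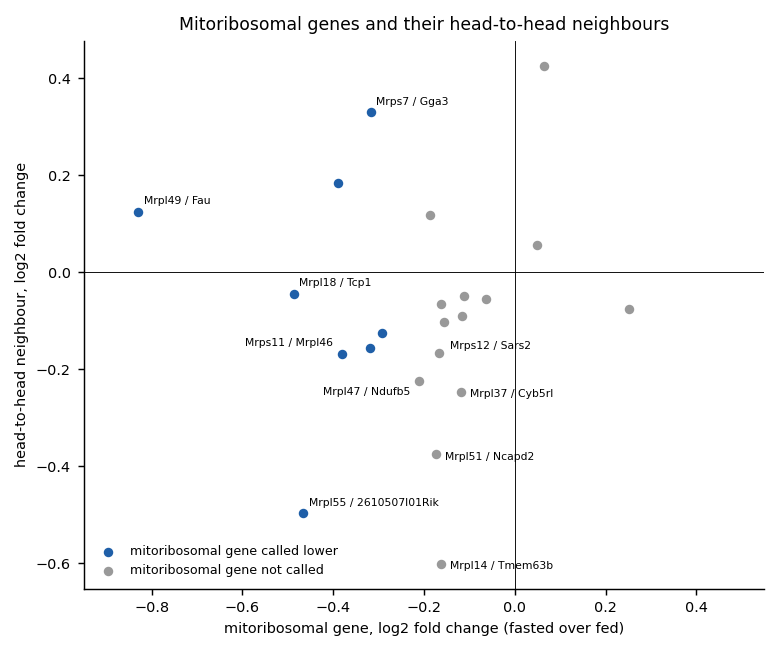
Log2 fold change (fasted over fed) of 22 mitoribosomal genes (horizontal axis) against that of the neighbour that starts within 1000 bases on the opposite strand (vertical axis), with the pair of Mrps11 and Mrpl46 drawn once, blue for mitoribosomal genes called lower and grey for those not called. The neighbours of the genes that fell lie on both sides of 0, from -0.50 beside Mrpl55 to 0.33 beside Mrps7.

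Among other genes of mitochondrial protein synthesis some were lower and most were not called, beside 10.7% called lower over all genes and 19.3% among those with the higher means. Of 15 measured translation factors 6 were lower and 0 higher by limma, with a median of -0.18 (0 higher at an unadjusted limma p under 0.05, 0 by the rank sum test). Tufm, the elongation factor that brings transfer RNA to the ribosome, fell by 0.48 (SE 0.075, limma adjusted p = 1.11e-04), from a mean of 8.16 to 7.68, but its dimmer probe set gave 0.32 (adjusted p = 0.139). Gfm1, the translocase, fell by 0.47 (SE 0.079, adjusted p = 2.06e-04), and Taco1, a translational activator of a respiratory subunit, by 0.41 (SE 0.096, adjusted p = 0.00429), with its other probe set at -0.059 (adjusted p = 0.784). The others lower were Tsfm, Gfm2 and Mtif2. Of 19 genes that charge mitochondrial transfer RNAs 7 were lower and 0 higher by limma, with a median of -0.20 (1 higher at an unadjusted limma p under 0.05, 0 by the rank sum test). Lars2, the leucyl-tRNA synthetase, fell by 0.73 (SE 0.095, adjusted p = 1.60e-05), Gatb, of the amidotransferase that makes glutaminyl-tRNA, by 0.61 (SE 0.099) and Iars2 by 0.46 (SE 0.087). Of the ribosomal proteins that go by other symbols 3 of 5 were measured, and Dap3, a GTP-binding protein of the small subunit, fell by 0.27 (SE 0.072, adjusted p = 0.0120).

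Most genes that assemble the ribosome or make its RNA were not called. Of 24 assembly factors 4 were lower (16.7%), 2 were higher (8.33%) and 18 were not called, with a median of -0.074, shares near those over all genes. The helicase Ddx28 rose by 0.44 (SE 0.12, limma adjusted p = 0.0157), and the GTPases Noa1 and Mtg1 fell by 0.33 (SE 0.11) and 0.32 (SE 0.11). Dropping fed replicate 1, 3, 4, 5 or 8 or fasted replicate 3, 4 or 7 ended the call of Noa1, with adjusted p = 0.0542 to 0.0655. The call of Mtg1 ended in 10 of 16 cases, with adjusted p = 0.0522 to 0.0752, the exceptions being fed replicates 2, 3 and 4 and fasted replicates 4, 5 and 6. Of 23 genes of mitochondrial DNA and RNA synthesis 4 were lower, 4 higher (17.4% each) and 15 not called, with a median of -0.075. Of all genes 10.7% were called lower and 8.49% higher, and of those with the higher means 19.3% and 14.8%. Hsd17b10, a part of mitochondrial RNase P as well as a dehydrogenase, rose by 0.57 (SE 0.084, adjusted p = 5.62e-05) and the transcription factor Tfb2m by 0.55 (SE 0.11, adjusted p = 0.00127; 0.35 and adjusted p = 0.229 with its dimmer probe set), while the RNA-degrading Pnpt1 fell by 0.54 (SE 0.064, adjusted p = 6.87e-06). Tfam, which packages mitochondrial DNA, was at 0.15 (SE 0.15, adjusted p = 0.603).

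Of 11 regulators of mitochondrial gene expression 2 were lower (18.2%) and 3 higher (27.3%). Of all genes 10.7% were called lower and 8.49% higher, and of those with the higher means 19.3% and 14.8%. The list is short, and its difference from these shares was not tested. The nuclear receptor Esrra fell by 0.51 (SE 0.14, limma adjusted p = 0.0145, but 0.0706 by the rank sum test) and the cofactor Hcfc1 by 0.28 (SE 0.063, adjusted p = 0.00271). Myc rose by 0.48 (SE 0.11, adjusted p = 0.00474), Nrf1 by 0.28 (SE 0.061, adjusted p = 0.00268), with every fasted array above every fed one, and Gabpb1 by 0.27 (adjusted p = 0.0435). Gabpa, which binds the ETS core, Yy1 and the coactivator Ppargc1a were not called, at 0.14 (SE 0.069), 0.11 (SE 0.063) and 0.39 (SE 0.19). Messenger levels of a factor do not show its activity, and no relation between these genes and the mitoribosomal genes was tested.

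Complex I, whose mitochondrially encoded subunits the ribosome makes, and the cytosolic ribosome were set beside the 71 genes. The 33 genes with complex I symbols were picked by symbol alone, which can take in genes of other proteins, such as Ndufa4l2. Of these 33, 19 were lower (57.6%, beside 10.7% of all genes and 19.3% of those with the higher means) and 0 higher. Their median was -0.22 (0 higher at an unadjusted limma p under 0.05, 0 by the rank sum test). Ndufb3 fell the most, by 1.10 (SE 0.11, limma adjusted p = 1.26e-06). The 63 genes with cytosolic ribosomal protein symbols also take in like-named genes such as Rpl3l, Rpl10l and Rpl32l. Of the 63, 0 were lower and 5 higher (7.94%, beside 8.49% of all genes), with a median of 0.092. At an unadjusted limma p under 0.05, 0 were lower and 13 higher, and by the rank sum test 0 and 6. Some of the 63 were dim, with means down to 2.19, and for such genes a small change may not be detectable. Rps27 was the largest of these changes, higher by 0.72 (SE 0.14, adjusted p = 0.00130), followed by Rpl39 (0.40, SE 0.13, adjusted p = 0.0382). Rpl39 was dim too, with means of 3.85 in fed and 4.26 in fasted arrays, under the filter level of 4.32. The call of Rpl39 ended when fed replicate 1, 3, 4 or 7 or fasted replicate 1, 3, 4 or 8 was dropped, with adjusted p = 0.0506 to 0.0794, and without the 3 doubted arrays (adjusted p = 0.103). The counts describe these lists, and the difference between the lists was not tested.

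**Figure D5:**
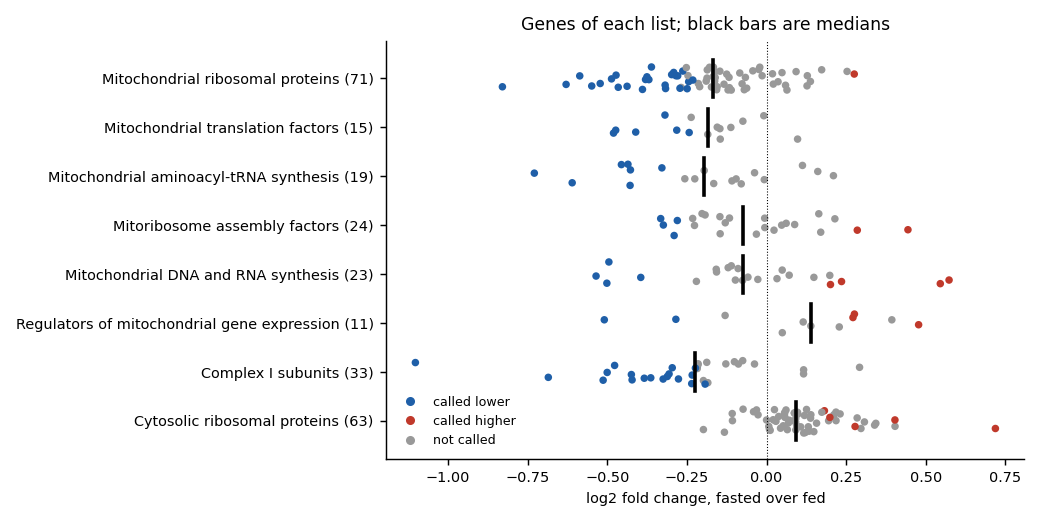
Log2 fold change (fasted over fed, horizontal axis) of every gene in 8 lists, with the number measured in brackets, a black bar at the median, and blue, red and grey for called lower, called higher and not called. The medians are -0.17 for mitochondrial ribosomal proteins, -0.18 for translation factors, -0.20 for aminoacyl-tRNA synthesis, -0.22 for complex I and 0.092 for cytosolic ribosomal proteins.

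Some markers of the cells of the tissue were called too, beside 10.7% of all genes called lower and 8.49% higher. Among genes with the higher means these shares were 19.3% and 14.8%. A single call in a list of 6 to 9 markers is near these shares and does not describe the cell type. Of 8 adipocyte markers 3 were lower and 1 higher in fasted fat, and their summed linear level was 29500 to 34488 in fed and 28020 to 31217 in fasted arrays. Of 8 endothelial markers 4 were higher and 0 lower (7 and 1 at an unadjusted limma p under 0.05, 3 and 0 by the rank sum test), and their summed linear level was 3588 to 4938 in fed and 4646 to 5805 in fasted arrays. Of 6 mesothelial markers 1 was lower, Krt19 (-0.55, limma adjusted p = 0.0487), and 5 had negative log2 fold changes with a median of -0.30. The summed linear level of these 6 was 1429 to 2537 in fed and 859 to 2320 in fasted arrays. Of 7 macrophage markers Cd68 (0.88) and Cd14 (0.43) were higher and Mrc1 (-0.23) was lower, and their summed linear level was 3628 to 4141 in fed and 3626 to 5701 in fasted arrays. Of 6 progenitor and fibroblast markers 1 was lower, Col3a1 (-0.73), and the sum was 6119 to 7494 and 6386 to 8347. In the lists of 7 skeletal muscle, 7 lymphocyte and 9 liver transcripts the only call was of 1 gene each, all higher: Acta1 (2.67), Il7r (0.99) and Apoc3 (0.95). Summed linear levels in these 3 lists were 118 to 207 and 318 to 1218, 110 to 182 and 131 to 219, and 899 to 8616 and 1056 to 6414 in fed and fasted arrays. The muscle sums mostly reflect Acta1, whose mean log2 level was 6.50 in fed and 9.17 in fasted arrays. The other 6 muscle transcripts had log2 fold changes of -0.18 to 0.062 and were not called. Markers of epididymal epithelium had low means, 2.51 to 3.11 in fed and 2.48 to 2.89 in fasted arrays, and 1 of 8 was lower. Their summed linear level was 46.8 to 121 (median 51.7) in fed and 46.2 to 72.2 (median 50.7) in fasted arrays. The highest values were those of fed replicate 2 and fasted replicate 7, the arrays with raised ciliated epithelium markers. Of 9 ciliated epithelium markers 0 were called by limma (0 at an unadjusted p under 0.05, 0 by the rank sum test). The part of cell composition in the falls of the mitoribosomal genes was not tested.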

How the data were processed

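Gonadal white adipose tissue was profiled on 16 arrays, 8 of fed and 8 of fasted samples. The deposited log2 values were made with RMA, per the submitters' processing notes, from 100 ng of labelled total RNA per sample, per the labels' protocols. A version of RMA and a probe set filter are not named there. RMA gives all arrays a common distribution, so changes are relative to other transcripts, and background can compress the changes of dim genes. No batch or scan date was given, and precision is limited by the number of arrays.

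The table held 41345 probe sets, of which 25335 were annotated, 23521 with 1 symbol and 1814 with several, and 16010 were unnamed here. For each of 22180 genes the probe set of highest mean was used. Correlations between arrays were 0.966 to 0.993, with 0 identical pairs. Fasted and fed arrays were compared on the log2 values as deposited, with lmFit and eBayes in limma 3.58.1 (R 4.3.3), group as the only term, without filtering. Errors are moderated standard errors. The fit was checked on simulated data.

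The members and lists were chosen with earlier results of these data known. Named were all called genes, those with several probe sets, the 4 brightest, 4 dimmest and 3 most and least variable, the 4 largest changes not called, the 3 on each side of the threshold, genes with a deviating subunit or paralogs, up to 3 called genes of each other list and a few regulators; others named were chosen after their values were seen. The list of cytosolic ribosomal proteins leaves out Rps6 kinases and Rps19bp1, whose symbols match but which are not ribosomal proteins. It keeps like-named genes such as Rpl3l. Alternatives were 2 filters on dim genes, 3 other normalizations, a trended and robust eBayes, weighted arrays, a block for the replicate number, leaving out 1 array at a time, 3 together or, added after the data were seen, 2 together, the probe set of lowest mean, an exact two-sided rank sum test, an adjusted p under 0.01 and the subunit by structure. Replicate numbers showed no clear pairing of the samples. Over 8 pairs the correlation of same-numbered arrays' deviations from the group mean was -0.22 to 0.22, above 0.1 in 2 pairs. Such a check cannot exclude a weak pairing. Promoter sequences and neighbours came from RefSeq, GRCm38.p6. Plots used Python 3.11.15 and matplotlib 3.10.9.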

Additional observations from a re-analysis of the deposited data

Results flagged for a closer look

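In 9 of 142 sets of 8 values (71 genes in each of 2 groups) 1 array stood far from the other 7, by a gap of more than 0.526 of the whole range. Chance flags about 1 in 20 groups. Fed replicate 2 was that array for 4 genes and was the low one each time: Mrps22 stood at 5.56 against 6.16 or more, Mrpl37 at 6.55 against 6.92 or more, Mrpl17 at 7.57 against 7.73 or more, and Mrpl48 at 3.45 against 3.88 or more. Without fed replicate 2, Mrpl48 was called lower (limma adjusted p = 0.0282) and Mrpl37 and Mrpl17 were not called (adjusted p = 0.0670 and 0.497). Fasted replicate 1 was low for Mrpl16, at 5.82 against 6.16 or more, and for Mrpl51, at 6.13 against 6.52 or more. Mrpl16 was still called without it (adjusted p = 0.00148) and Mrpl51 was not called with or without it (adjusted p = 0.322 without it). Fed replicate 3 was low for Mrps21, at 5.59 against 5.81 or more, and the gene was called without it (adjusted p = 0.00835). Fed replicate 1 was high for Mrpl4, at 7.17 against at most 6.64, and fed replicate 8 for Mrpl23, at 6.55 against at most 6.34, and neither gene was called with or without that array. Fed replicate 2 also had the highest mean of the ciliated epithelium markers, 5.40, and its part in these values was not tested.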

How the results depend on the processing

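With 1 array left out at a time, the count of mitoribosomal genes called lower was 21 to 27 (main 25) and of those called higher 0 to 2, with 14 to 19 large and 7 to 10 small subunit genes lower. All genes called numbered 3823 to 4265, lower genes of the other lists of mitochondrial translation 19 to 25 (main 24), and lower genes of complex I and the cytosolic ribosome 14 to 20 (main 19). At an adjusted p under 0.01, 14 mitoribosomal genes were lower, 3 of them small subunit genes, 0 were higher, and the other counts were 2766 genes in all, 14 in the other lists and 10 in complex I and the cytosolic ribosome. The single higher call was also lost, leaving 0, with array medians subtracted, the probe set of lowest mean, the rank sum test and without the 3 doubted arrays or only fed replicate 2 and fasted replicate 7 (6 small subunit genes lower). In the other alternatives 21 to 29 genes were lower, the most with the filters on dim genes, where fewer genes were tested. Under every normalization tried the median of the 71 genes stayed negative, -0.16 to -0.19. Tufm changed sign with its dimmer probe set, at 0.32 (adjusted p = 0.139), and the cause was not tested. With the replicate number as a block, a pairing the labels do not state and the arrays do not bear out, 23 genes were lower, 21 of them among the 25, 16 large and 7 small, and 3829 genes were called in all. Same-numbered arrays were most alike in 2 of 8 pairs. Of the 71 genes, 5 had dim probe sets, in which background may hide small changes, which was not tested. Levels of transcripts say nothing of the amount of ribosomal protein.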
